A study of Homo sapiens with 4 samples.

Results

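The transcripts of 44 genes that copy the genome in S phase were examined in HaCaT cells, a spontaneously immortalized keratinocyte line from human skin. The genes were chosen by name, by a rule that uses no measured value, although earlier results of these data were known. Each of the 44 symbols matched a single protein-coding row among the 44591 genes of the files, 19233 of which are protein-coding. The data are RNA-seq of 4 replicates of a single untreated group, grown at 37 °C and 5% CO2 in a medium with serum (12% in the labels, a lower share in the study's methods), so there is no comparison between conditions. The study calls the samples biological repeats, but the labels do not say that they came from separate cultures, and the spread given here is that between these 4 samples. Levels are TPM over protein-coding genes: the count of a gene divided by its length, scaled so that the protein-coding genes of a library sum to 1000000. A gene with a mean TPM above 1 was called detected, which held for 12165 protein-coding genes.

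DNA replication starts at origins that are prepared, or licensed, in G1 and fired in S phase. The origin recognition complex (ORC1 to ORC6) binds DNA, and with CDC6 and CDT1 it loads the ring-shaped MCM2 to MCM7 helicase. Geminin (GMNN) binds CDT1 after firing and prevents a second round of loading. CDC45 and the GINS complex (GINS1 to GINS4) join the ring to make the active helicase, helped by MCM10. DNA polymerase alpha with its primase lays down primers, polymerases epsilon and delta extend the leading and the lagging strand, and the clamp PCNA, loaded by the RFC complex, holds them on the template. RPA coats single-stranded DNA, FEN1 and LIG1 trim and join Okazaki fragments, and ribonucleotide reductase (RRM1, RRM2) and thymidylate synthase (TYMS) supply deoxynucleotides. Many of these genes are known targets of the E2F transcription factors, which RB holds in check until S phase entry. The epidermis renews itself from dividing basal keratinocytes, and an immortalized line keeps this machinery in use in culture.

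The libraries held 73082279, 17056035, 19745170 and 19083836 counts in replicates 1 to 4. Replicate 1 stood apart: it was the deepest by 4.28-fold over the shallowest, and 76.1% of its counts fell on protein-coding genes against 95.3% to 96.4% in the others. Some results are therefore also given without it, while the mean levels of genes take in all 4 replicates. The cause of its difference was not tested. Keratinocyte markers were abundant, with 10 of 10 detected and a summed TPM of 13290 to 18321, of which the basal keratin KRT14 had a mean of 6847. The summed TPM was 5.20 to 9.70 for 6 fibroblast markers, 1.36 to 3.52 for 4 melanocyte markers and 0.859 to 2.36 for 3 endothelial markers. Among leukocyte markers, PTPRC, which defines these cells, held at most 3 counts in every replicate, while CD68, a lysosomal protein of macrophages, had 7.94 to 43.9 TPM and CD14, a receptor of monocytes, had 3.03 to 8.92 TPM.

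The promoters of the 44 genes were read from the RefSeq table of sequences around transcription starts (GRCh38.p14), in windows of 250 bases before to 50 bases after each start. An entry was found for 38 of the 44 genes, with 48 windows. The search used the letters of strong E2F sites, TTTCCCGC, TTTCGCGC, TTTGCCGC and TTTGGCGC, on both strands, and overlapping matches were merged into a single stretch. At least 1 stretch was present for 19 of the 38 replication genes with an entry, against 3.99% of the 27305 genes in the table and 5.38% of those that are protein-coding in the files. The 6 windows below show the 160 bases before the start of 6 of these genes, written 5′ to 3′ on the strand of the gene, with the E2F letters in capitals. They were chosen to show a window with a pair of stretches (MCM6), the gene with the highest level (PCNA), the licensing factor with the widest spread between replicates and its inhibitor (CDT1 and GMNN), a polymerase alpha subunit (POLA2), and the gene with the narrowest spread, whose window holds none of the letters (RFC4). Their positions are chr2:135876444-135876603 (minus strand) for MCM6, chr20:5126623-5126782 (minus) for PCNA, chr16:88803629-88803788 (plus) for CDT1, chr6:24775253-24775412 (plus) for GMNN, chr11:65261802-65261961 (plus) for POLA2 and chr3:186806483-186806642 (minus) for RFC4.
MCM6: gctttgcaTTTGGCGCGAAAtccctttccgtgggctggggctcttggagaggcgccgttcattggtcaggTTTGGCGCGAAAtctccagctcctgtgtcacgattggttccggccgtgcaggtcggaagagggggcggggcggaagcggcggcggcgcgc
PCNA: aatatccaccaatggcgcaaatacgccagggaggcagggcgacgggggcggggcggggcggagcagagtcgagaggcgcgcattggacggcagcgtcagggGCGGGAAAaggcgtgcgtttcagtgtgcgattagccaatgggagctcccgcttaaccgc
CDT1: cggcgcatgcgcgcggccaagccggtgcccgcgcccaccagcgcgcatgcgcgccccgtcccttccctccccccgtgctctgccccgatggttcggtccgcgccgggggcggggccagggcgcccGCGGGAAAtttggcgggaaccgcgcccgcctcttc
GMNN: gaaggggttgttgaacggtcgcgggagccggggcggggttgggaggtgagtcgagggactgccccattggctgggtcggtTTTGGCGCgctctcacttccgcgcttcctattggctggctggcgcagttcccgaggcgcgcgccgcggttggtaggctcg
POLA2: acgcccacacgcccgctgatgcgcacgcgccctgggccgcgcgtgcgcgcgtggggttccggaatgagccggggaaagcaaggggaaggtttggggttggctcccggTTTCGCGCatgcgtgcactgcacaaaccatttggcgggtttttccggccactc
RFC4: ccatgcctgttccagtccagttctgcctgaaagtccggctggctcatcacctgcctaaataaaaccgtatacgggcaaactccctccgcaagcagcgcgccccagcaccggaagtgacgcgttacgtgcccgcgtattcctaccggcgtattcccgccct

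In MCM6 the same 12 letters, TTTGGCGCGAAA, stand at positions -152 and -90 from the start. This stretch reads as an E2F match on either strand. Windows with 2 or more stretches were found for MCM6, MCM3 and MCM7, which is 3 of 48 replication windows (6.25%) against 0.125% of all 35116 windows. By role, the letters were in the windows of 4 of 4 helicase genes with an entry (MCM2, MCM3, MCM6, MCM7), in 3 of 3 licensing genes (CDC6, CDT1, GMNN) and in 1 of 6 origin recognition genes (ORC3). Of the 22 stretches, 14 began within 100 bases before the start, 5 lay farther upstream and 3 began after it. The CCAAT box, searched as CCAAT on both strands, was present for 60.5% of the 38 genes against 39.7% of all genes in the table. Among those that are protein-coding in the files the share was 42.3%. The windows of the 38 genes are also rich in G and C, with a median GC content of 65.3%. The median was 58.7% over all windows and 62.7% over windows of protein-coding genes of the files. The letters did not sort the genes by level: the median of the mean TPM was 61.8 for the 19 genes with them and 58.0 for the 19 without. A match is a description of the letters and does not show binding.

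All 44 replication genes were detected in HaCaT cells, each with at least 230 counts in every replicate. Their summed TPM was 3233, 4154, 5207 and 3969 in replicates 1 to 4, or 0.414% ± 0.0815 (SD, n = 4) of the TPM of protein-coding genes. The median gene of the set stood at 42.8, 63.5, 71.4 and 50.1 TPM, against 22.6, 24.3, 18.4 and 24.3 TPM for the median detected gene. Thus the set sat above the middle of expressed genes in every library, and 39 of the 44 genes had a mean above the 50th percentile and 7 above the 90th. PCNA was the highest, with 586, 531, 881 and 552 TPM in replicates 1 to 4 (637 ± 164). MCM7 followed with 204, 336, 381 and 288 TPM (302 ± 75.8), and then FEN1 with 258 ± 103 and MCM2 with 252 ± 81.5 TPM. At the lower end were POLE2 (18.7 ± 1.78 TPM), ORC2 (18.6 ± 5.33) and ORC4, with 18.4, 8.72, 9.83 and 8.16 TPM (11.3 ± 4.78). Of the 43 pairs of neighbours in the order of mean levels, PCNA and MCM7 were the only pair whose ranges over the 4 replicates did not overlap. A further 3 pairs, MCM2 above POLD2, MCM4 above MCM3 and ORC2 above ORC4, kept the same order within each replicate. Fewer cells in S phase and less RNA per cell cannot be told apart in such bulk samples.

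**Figure D1:**
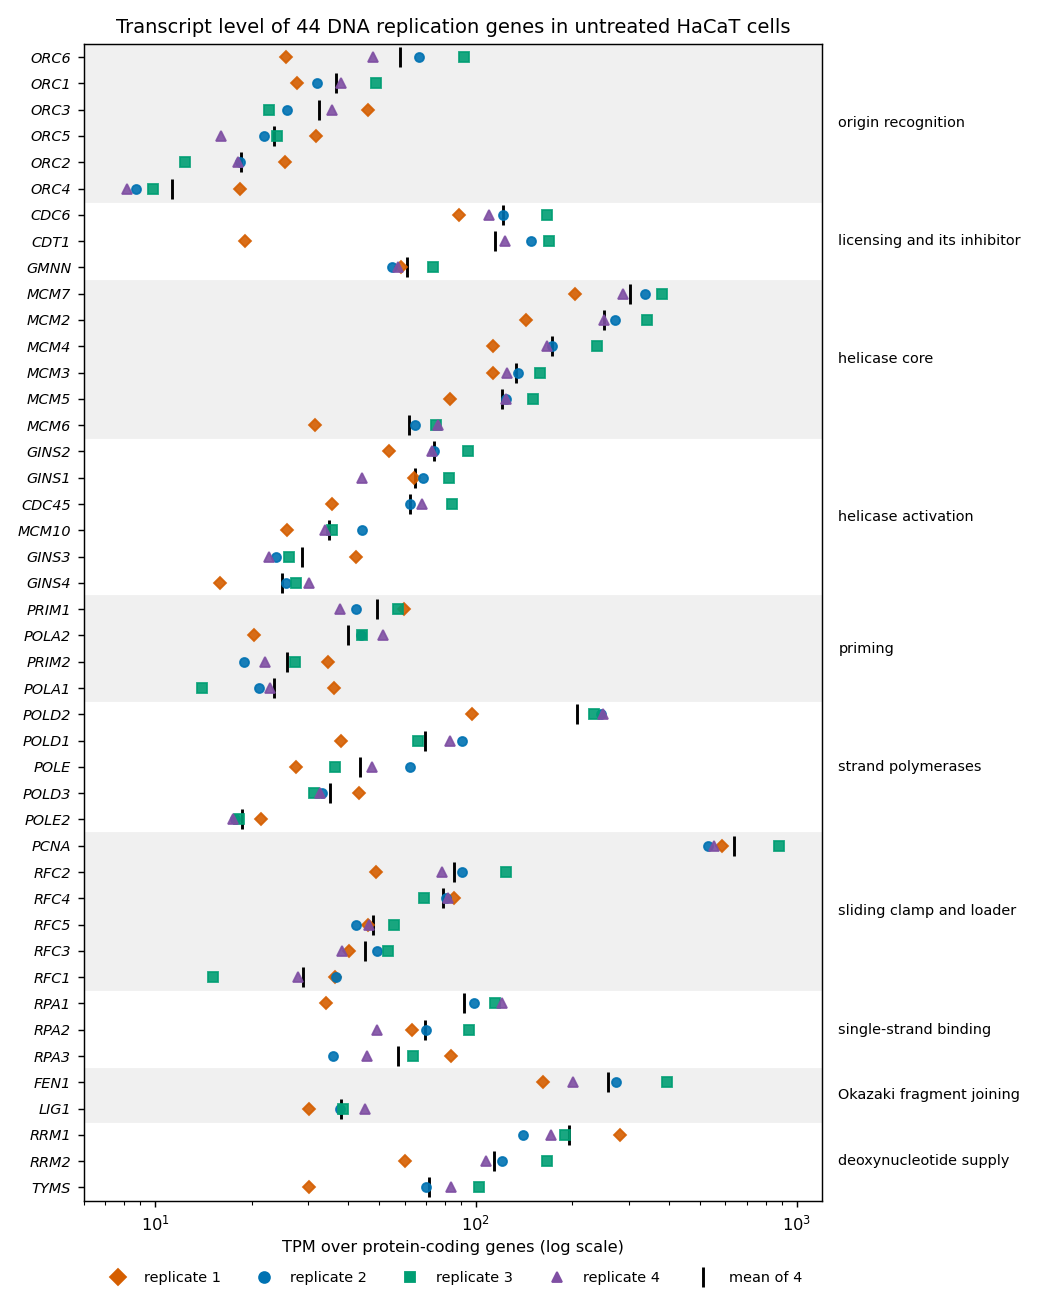
TPM over protein-coding genes (log scale) of the 44 replication genes, grouped by role, with a symbol for each of the 4 replicates and a bar for their mean. PCNA lies to the right of all other genes at 531 to 881 TPM, ORC4 has the lowest mean at 11.3 TPM, and the symbol of replicate 1 often stands away from the other three, most of all for CDT1.

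Within the origin recognition complex, ORC6 was the highest by mean, with 25.5, 66.7, 91.8 and 47.8 TPM in replicates 1 to 4 (58.0 ± 28.1). It was above the other subunits in replicates 2 to 4 but below ORC3, ORC5 and ORC1 in replicate 1. ORC1, the subunit whose level is regulated over the cell cycle, had 36.7 ± 9.23 TPM, ORC3 32.5 ± 10.6, ORC5 23.4 ± 6.52 and ORC2 18.6 ± 5.33. ORC4 was the lowest of the 6 in every replicate. The other 5 subunits changed places, and the 4 replicates gave 4 different orders. These ranks rested on the gene length used: with the union of annotated exons as length, ORC1 was the highest by mean (67.7 against 41.8 TPM for ORC6) and ORC6 the lowest in replicate 1. Per length, the ratio of ORC6 to ORC4 was 1.39 in replicate 1 (95% Clopper-Pearson interval 1.29 to 1.49) and 5.86 to 9.34 in the other replicates. With exon union lengths it was 0.689 in replicate 1, below 1, and 2.91 to 4.63 elsewhere. Such intervals take in counting error alone, as the reads carry no molecular identifiers and cannot be traced to separate molecules. The summed TPM of the complex was 175, 173, 210 and 164 (180 ± 20.1). Opposite shifts cancel in such a sum: in replicate 1, ORC1 and ORC6 were at their lowest and ORC2 to ORC5 at their highest.

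The licensing factor CDT1 (hg19 chr16:88870186-88875666, plus strand) had the widest spread of the 44 genes. Its level was 19 TPM in replicate 1 against 149, 169 and 123 TPM in replicates 2 to 4, an 8.90-fold range with a coefficient of variation (CV, the SD over the mean) of 58.0%. Without replicate 1 the CV was 15.6%. CDC6, the ATPase that recruits CDT1 to the origin complex, had 88.7, 121, 167 and 110 TPM (122 ± 33.0). The inhibitor geminin was steady, at 58.3, 54.8, 73.7 and 57.2 TPM (61.0 ± 8.59), and the 4 values were within 1.34-fold of each other. Consequently geminin stood above CDT1 in replicate 1 by a ratio of 3.06 (95% interval 2.85 to 3.29) and below it elsewhere, with ratios of 0.368, 0.435 and 0.463. CDC6 and CDT1 were nearly level in replicates 2 to 4, with ratios of CDC6 to CDT1 of 0.815, 0.986 and 0.893, whereas in replicate 1 the ratio was 4.66.

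The 6 genes of the MCM helicase core came in the same order in all 4 replicates: MCM7, MCM2, MCM4, MCM3, MCM5 and MCM6. The means were 302 ± 75.8 TPM for MCM7, 252 ± 81.5 for MCM2, 173 ± 51.2 for MCM4, 133 ± 19.2 for MCM3, 121 ± 28 for MCM5 and 61.8 ± 20.8 for MCM6. The proteins form a ring with 1 copy of each, while the transcripts were spread over 6.45-, 5.20-, 5.08- and 3.78-fold between MCM7 and MCM6 in replicates 1 to 4. MCM6 had 31.6 TPM in replicate 1 and 64.6, 74.9 and 76.0 TPM in the other replicates. Some steps of this order were small: MCM4 and MCM3 were both at 113 TPM in replicate 1, and MCM3 and MCM5 at 125 and 124 TPM in replicate 4. The place of the lower genes also rested on the gene length used. With the union of annotated exons as length, MCM6 stood above MCM5 (105 against 76.9 TPM), since the length of MCM5 then grew 2.88-fold, and MCM3 stood above MCM4 in replicate 1. MCM7 and MCM2 remained first and second in both cases. The core made up the largest share of the set on average (24.9%), with a summed TPM of 689, 1104, 1344 and 1031, although PCNA and its loader exceeded it in replicate 1 at 843 TPM. With exon union lengths the clamp and loader had the larger share on average (26.7% against 24.1%).

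**Figure D2:**
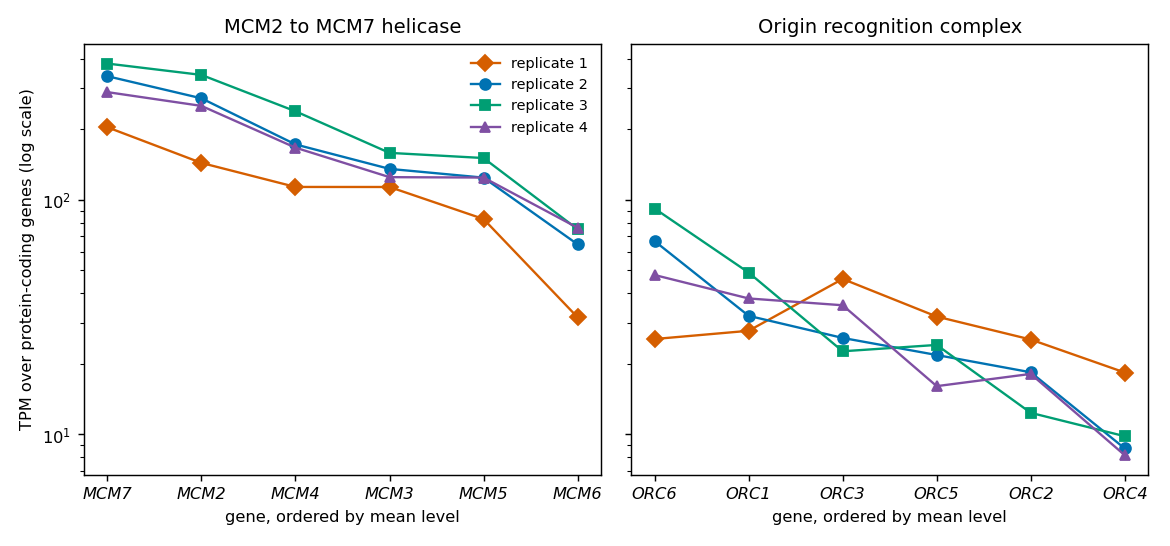
TPM over protein-coding genes (log scale) of the subunits of the MCM2 to MCM7 helicase (left) and of the origin recognition complex (right), ordered by mean level, with a line for each replicate. The 4 lines of the helicase fall from MCM7 to MCM6 without crossing the order of the genes, at up to 381 TPM, while those of the origin recognition complex change order and end at 8.16 to 18.4 TPM for ORC4.

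Among the factors that activate the loaded ring, GINS2 was the highest by mean (73.9 ± 16.8 TPM), followed by GINS1 (64.8 ± 15.8) and CDC45 (62.5 ± 20.2). MCM10 (34.8 ± 7.54 TPM), GINS3 (28.8 ± 9.22) and GINS4 (24.8 ± 6.23) were lower. The order was not the same in each replicate. GINS3 stood above GINS4 in replicate 1 (42.4 against 16.0 TPM) but below it in replicates 2 to 4. CDC45 stood above GINS1 in replicates 3 and 4. With exon union lengths the order changed, since the length of GINS2 grew 2.77-fold: GINS1 (99.3 TPM), CDC45 (83.9) and MCM10 (53.2) then stood above GINS2 (49.1). The 4 GINS proteins form a complex with 1 copy of each, and here as well the transcripts differed in level. The ratio of GINS2 to GINS3 per length was 3.11, 3.61 and 3.23 in replicates 2 to 4, with 95% intervals from 2.72 to 4.01, and 1.26 in replicate 1, where it was 0.975 with exon union lengths. GINS3 was the only one of these 6 genes with its highest value in replicate 1, at 42.4 TPM against 22.6 to 26.2.

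For primer synthesis, the small primase subunit PRIM1 had 49.3 ± 10.9 TPM and the large subunit PRIM2 had 25.7 ± 6.80. The catalytic subunit of polymerase alpha, POLA1, had 36.2, 21.2, 14 and 22.9 TPM (23.6 ± 9.27), and its accessory subunit POLA2 had 20.3, 44, 44.1 and 51.2 TPM (39.9 ± 13.5). These subunits of one enzyme thus took opposite positions: replicate 1 was the highest of 4 for POLA1 and the lowest of 4 for POLA2. The summed TPM of the 4 genes stayed between 126 and 151 (138 ± 10.6).

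Among the polymerases that copy the strands, POLD2, the second subunit of polymerase delta, stood out with 97.4, 245, 234 and 248 TPM (206 ± 72.9). Replicates 2 to 4 were within a CV of 3.05%, and replicate 1 was at 0.401 of their mean. The catalytic subunit POLD1 had 37.9, 90.6, 65.9 and 82.9 TPM (69.3 ± 23.3), and POLD3, which ties delta to PCNA, had 43.2, 33.2, 31.3 and 32.6 TPM (35.1 ± 5.48). For polymerase epsilon, the catalytic POLE had 43.4 ± 15.0 TPM and the subunit POLE2 had 18.7 ± 1.78. POLE2 had a CV of 9.51%, next to RFC4 the lowest of the 44, and differed by 1.22-fold between its lowest and highest replicate.

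The sliding clamp PCNA (hg19 chr20:5095599-5107268, minus strand) was encoded by far more transcript than any subunit of its loader. RFC2 had 85.5 ± 31.1 TPM, RFC4 79.2 ± 7.01, RFC5 47.7 ± 5.63, RFC3 45.2 ± 7.14 and RFC1 29 ± 10.1. RFC4 was the steadiest of the 44 genes, with 85.2, 80.9, 69.1 and 81.7 TPM and a CV of 8.85%. RFC1, the large subunit, was the lowest of the loader in every replicate, with 36.3, 36.6, 15.1 and 27.9 TPM. Replicate 3 stood apart for this pair: PCNA was at its highest and RFC1 at its lowest there, so that their ratio per length was 58.1 (95% interval 53.8 to 63.0) against 14.5 to 19.8 in the others. The ratio of RFC2 to RFC1 was also widest there, at 8.18 against 1.35 to 2.81.

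The single-strand binding protein RPA is a trimer of RPA1, RPA2 and RPA3. RPA1, the large subunit, had 34.0 TPM in replicate 1 and 98.8, 115 and 121 TPM in replicates 2 to 4 (92.1 ± 39.8). RPA2 had 63.1, 70.2, 95 and 49 TPM (69.3 ± 19.2), and RPA3 had 83.7, 35.9, 63.9 and 45.7 TPM (57.3 ± 21.1). The order was RPA1, RPA2, RPA3 in replicates 2 to 4 and the reverse in replicate 1. With exon union lengths it was RPA2, RPA3, RPA1 in replicate 1, and replicates 2 to 4 no longer shared the same order. The sum of the trio moved from 181 to 274 TPM.

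On the lagging strand, the flap endonuclease FEN1 had 162, 274, 396 and 201 TPM (258 ± 103) and the ligase LIG1 had 30.2, 37.8, 38.4 and 45.2 TPM (37.9 ± 6.10). FEN1 was higher in each replicate, by a ratio of 5.34, 7.23, 10.3 and 4.45 per length. For nucleotide supply, the large reductase subunit RRM1 had 282, 140, 190 and 171 TPM (196 ± 61.0), the small subunit RRM2 had 60.1, 121, 166 and 107 TPM (114 ± 43.8), and TYMS had 30.3, 70.0, 102 and 83.6 TPM (71.6 ± 30.5). The order RRM1, RRM2, TYMS held in all 4 replicates. RRM1 and RRM2 were close in replicates 2 to 4, with ratios of RRM2 to RRM1 of 0.862, 0.877 and 0.628, but far apart in replicate 1, with a ratio of 0.213.

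Differences between partner genes were then compared within replicates, where library depth cancels. On the scale of log2(TPM + 1), the median of the MCM genes exceeded that of the ORC genes by 2.05, 2.64, 3.005 and 2.46 (2.54 ± 0.40). The same sign in 4 of 4 replicates was found for PCNA over RFC1 (4.46 ± 0.89), FEN1 over LIG1 (2.67 ± 0.53), POLD2 over POLD1 (1.54 ± 0.21) and PRIM1 over PRIM2 (0.92 ± 0.19). It was also found for RRM2 below RRM1 (-0.82 ± 0.95) and POLE2 below POLE (-1.11 ± 0.60). In a two-sided exact sign-flip permutation test each of these 7 differences gave p = 0.125, adjusted to 0.179 over the 10 differences tested. This is the smallest p that 4 replicates allow, so that none could pass 0.05. The sign was not the same in all replicates for POLE2 and POLE with exon union lengths (-0.68, exact permutation p = 0.25) or for PRIM1 and PRIM2 without length correction (0.04, p = 0.625). The remaining 3 differences changed sign between replicate 1 and the others: GMNN minus CDT1 was 1.57 in replicate 1 and -1.43 to -1.10 in replicates 2 to 4 (exact permutation p = 0.625), RPA3 minus RPA1 was 1.27 and -1.43 to -0.84 (p = 0.375), and CDC6 minus CDT1 was 2.16 and -0.29 to -0.02 (p = 1). The differences were the tightest of the 10 for the subunit pairs PRIM1 and PRIM2, and POLD2 and POLD1, at SDs of 0.19 and 0.21. Other subunit pairs were wider, at SDs of 0.60 for POLE2 and POLE, 0.95 for RRM2 and RRM1 and 1.27 for RPA3 and RPA1.

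**Figure D3:**
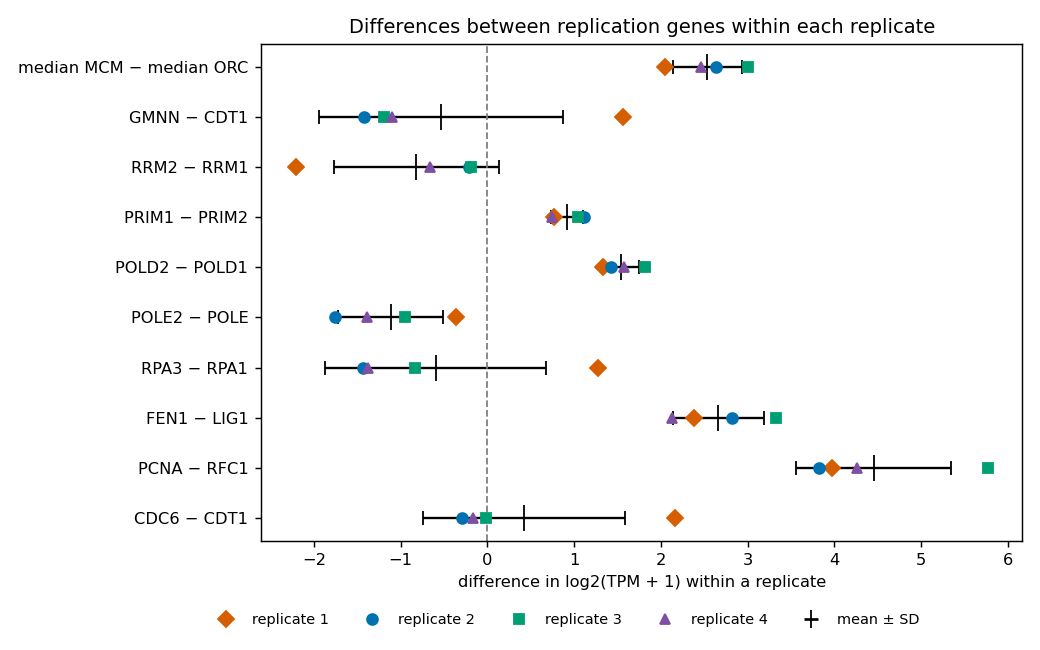
Differences in log2(TPM + 1) between partner genes within each replicate, with a symbol for each of the 4 replicates and the mean ± SD in black. The symbol of replicate 1 lies on the other side of 0 from replicates 2 to 4 for GMNN and CDT1, RPA3 and RPA1, and CDC6 and CDT1. Replicate 3 lies farthest right for PCNA and RFC1, at 5.77.

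Each replicate was next compared with the mean of the other replicates on the log2(TPM + 1) scale, gene by gene. In replicate 1, 9 of the 44 genes were lower by over 2-fold and 0 higher, against 20.1% lower and 17.4% higher among all detected genes. Those 9 genes were CDT1 (-2.88), RPA1 (-1.68), TYMS (-1.45), ORC6 (-1.35), POLD2 (-1.31), MCM6 (-1.16), POLA2 (-1.15), RRM2 (-1.09) and POLD1 (-1.04). They make up 20.5% of the set, a share near that of all genes. In replicate 3, ORC6 (1.06) and CDT1 (1.24) were higher by over 2-fold and RFC1 (-1.09) lower, against 3.05% higher and 14.4% lower among all detected genes. Without replicate 1 in the comparison, 0 of the 44 genes were higher by over 2-fold in replicate 3, against 0.671% of all detected genes. In replicates 2 and 4 none of the 44 passed 2-fold in either direction, where 7.83% and 6.89% of all detected genes were higher and 1.38% and 1.99% lower. With a single library on one side these counts carry no test.

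The set was shifted from the middle of detected genes in replicates 1 and 3. Its median difference was -0.44, 0.07, 0.34 and -0.01 in replicates 1 to 4, against 0.03, 0.12, -0.23 and 0.13 for all detected genes. Relative to all detected genes, the set was thus lower by 0.48 in replicate 1 and higher by 0.57 in replicate 3. In replicate 3, 34 of 44 genes lay above the other replicates, compared with 36.6% of all detected genes, and 21 had their highest value there, compared with 13.3%. In replicate 1, 24 had their lowest value and 13 their highest, compared with 37.5% and 40.2% of all detected genes. Replicate 1 lay outside the range of replicates 2 to 4 for 37 of the 44 genes (84.1%), compared with 77.7% of all detected genes. The median CV of the set was 29.2% over 4 replicates and 16.5% over replicates 2 to 4, against 37.8% and 24.8% for all detected genes. The order of the 44 genes agreed closely among replicates 2 to 4 (Spearman correlation across genes 0.951 to 0.967) and less with replicate 1 (0.645 to 0.678). Across the 12165 detected genes the same correlations were 0.944 to 0.967 and 0.754 to 0.780. Genes are not independent replicates, and these correlations are descriptions.

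**Figure D4:**
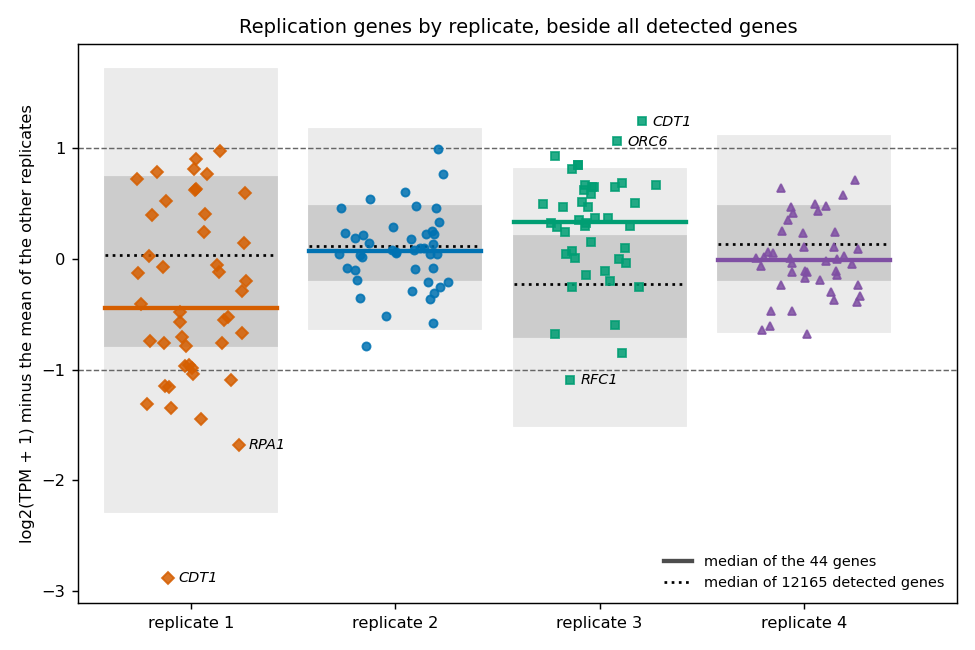
log2(TPM + 1) of each replication gene minus the mean of the other replicates, with a symbol for each of the 44 genes in each replicate. The solid line is the median of the 44 genes, the dotted line that of the 12165 detected genes, the dark and light grey boxes span the 25th to 75th and the 5th to 95th percentile of detected genes, and dashed lines mark 2-fold. The solid line lies below the dotted line in replicate 1 (-0.44 against 0.03) and above it in replicate 3 (0.34 against -0.23).

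Base composition moved with these differences, and length did so most in replicate 3. The GC content of the transcripts, from GENCODE release 29 by symbol, ran from 37.7% for ORC4 to 65.0% for POLD1, with CDT1 at 64.9%. Across the 44 genes, the difference of replicate 1 from the others had a Spearman correlation of -0.68 with GC content, and across 11889 detected genes with a GC value it was -0.51. The correlation with gene length was near 0 in that replicate (0.02 and 0.10). For replicates 2 and 4, whose comparison includes replicate 1, the correlations with GC content were 0.51 and 0.52 across the 44 genes. Across detected genes they were 0.34 and 0.24. The correlations with gene length were 0.25 and 0.30 across the 44 genes and 0.13 and 0.25 across detected genes. ORC4, at the low end of GC, was higher in replicate 1 by 0.97, and CDT1 and POLD1, at the high end, were lower by the values given above. RPA1 lay off this trend, at 48.2% GC and -1.68. In replicate 3, whose comparison also includes replicate 1, the correlation of the difference with gene length was -0.39 across the 44 genes. Across 12165 detected genes it was -0.42. The correlation with GC content was 0.43 across the 44 genes and 0.38 across detected genes. The points share their libraries, and the part of GC content and length in the differences was not tested.

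**Figure D5:**
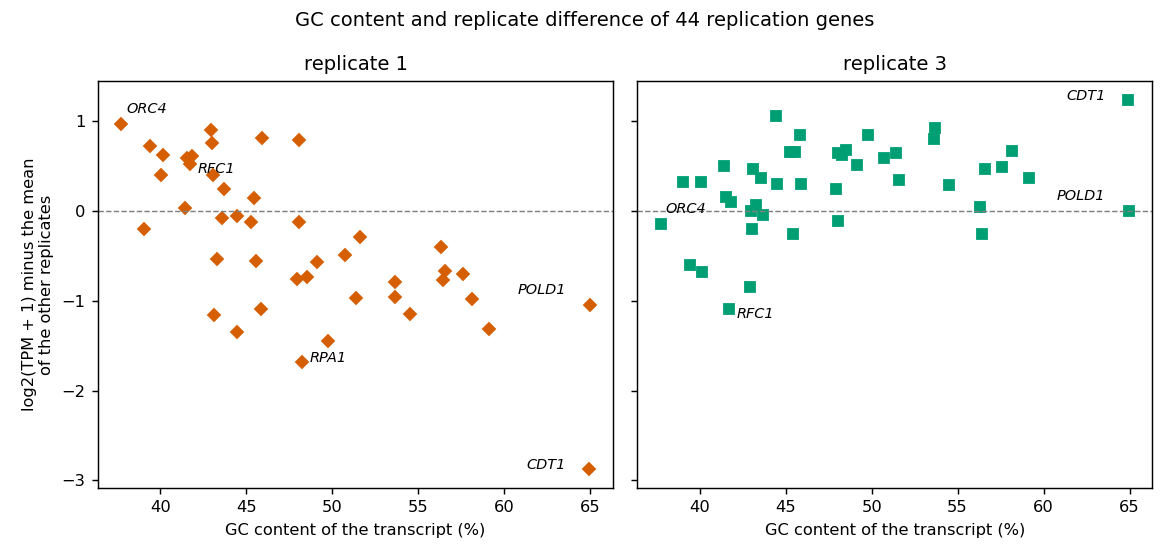
GC content of the transcript (%) and log2(TPM + 1) minus the mean of the other replicates, for the 44 replication genes in replicate 1 (left) and replicate 3 (right), with a symbol for each gene. In replicate 1 the symbols descend from ORC4 at 37.7% GC to CDT1 at 64.9% GC, and in replicate 3 RFC1 lies lowest and CDT1 highest.

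Position in the genome bears on what the counts of some of these genes hold. By the positions in the files (hg19), 15 of the 44 genes overlap another gene, 13 of them one on the opposite strand, and 29 overlap none. The same share over all genes was not computed, so whether overlap is more common in this set is not known. Whether the counting used strand is not given in the sources used here, so reads of such overlapping genes may not be told apart. PCNA overlaps PCNA-AS1 by 384 bases, and this antisense row held 31 counts in replicate 1 against 1379, 3013 and 1629 in the others, or 0.151% of the PCNA count against 26.4% to 27.5%. The antisense row over GINS4 held 0 counts in replicate 1 and 109 to 167 elsewhere. TYMS overlaps ENOSF1, whose count was 58.1% to 94.7% of that of TYMS, RPA3 overlaps UMAD1 (17.7% to 42.3%), and ORC4 overlaps ACVR2A (18.8% to 40.7%) and MBD5 (7.72% to 26.4%). EIF4A2 held 360% to 923% of the count of RFC4 but overlaps it by 6 bases. These shares are of whole genes, and how many reads fell in the overlaps is not known from the counts. Pseudogene rows named after PCNA, RFC3, POLD2, RPA2, FEN1 and RRM2 held at most 3 counts in any replicate.

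Further genes of the pathway gave the surroundings. Of 39 other replication genes, 38 were detected, with TK1, the thymidine kinase of the salvage pathway, the highest at 407 ± 144 TPM and the topoisomerase TOP2A at 621, 241, 96.2 and 403 TPM. The exception was GMNC, a geminin relative of multiciliated cells, with 0 counts in all 4 replicates, which allows up to 3 counts in each. Of 17 regulators of S phase entry, 17 were detected, and their median difference from the other replicates was 0.41, 0.10, -0.24 and 0.12 in replicates 1 to 4, against 0.03, 0.12, -0.23 and 0.13 for all detected genes. They did not share a pattern. The activator E2F1 had 14.6, 32.1, 42.3 and 35.6 TPM, lowest in replicate 1 and highest in replicate 3, while the pocket protein RBL2 had 79.9, 18.6, 8.71 and 31.4 TPM, highest in replicate 1 and lowest in replicate 3. For 20 mitosis genes the pattern over replicates differed from that of the replication set: their median difference from the other replicates was 0.44, -0.33, -0.45 and 0.44 in replicates 1 to 4. Of these 20, 7 were higher by over 2-fold and 2 lower in replicate 1, against 17.4% and 20.1% of all detected genes. In replicate 4, 4 were higher and 0 lower, against 6.89% and 1.99%. In replicate 3, then, the 44 replication genes had a median above 0 and the mitosis genes a median below 0, and 6 of 20 mitosis genes were lower there by over 2-fold (30%, against 14.4% of all detected genes). The other replication genes had a median of -0.02 in that replicate, above the -0.23 of all detected genes, and 7 of 38 (18.4%) were lower by over 2-fold. These differences between lists rest on single libraries and were not tested. The difference of replicate 3 fell with gene length across detected genes (Spearman correlation -0.42), and the part of length in the lists was not tested.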

How the data were processed

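Total RNA of 4 untreated HaCaT replicates was sequenced. The authors deposited raw counts per gene with a gene length, and beside them RPKM (replicates 1 and 2) or TPM over all genes (replicates 3 and 4). Recomputing the deposited RPKM and TPM from the counts gave the same values. The submitters' processing notes name HISAT, HISAT2, TopHat2, Bowtie2 and hg19, with no role or order. The counting program, annotation and strand setting are not given in the sources used here.

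TPM over protein-coding genes was computed from the counts for all replicates. Means are given ± SD (n = 4). Differences within a replicate used log2(TPM + 1), which understates the change of low genes, and two-sided exact sign-flip permutation tests with Benjamini-Hochberg adjustment. Count ratios have 95% Clopper-Pearson intervals. Counts of 3 or fewer were treated as the limit of detection. The steps were tested on simulated data. All 44 genes were to be named, other genes only from fixed lists, as overlapping or divergent neighbours, or as pseudogenes. The genes and lists were chosen with earlier results of these data known. The count ratios of ORC6 to ORC4, GINS2 to GINS3 and RFC2 to RFC1 were chosen after their values were seen. Alternatives were TPM over all genes, leaving out the mitochondrial genome, upper quartile scaling, no length correction, exon union lengths, a pseudocount of 0.1, a limit of 1.5-fold, no filter on low values and leaving out each replicate. A search for PCNA-binding peptides in proteins was planned and was not run. The scripts ran on Python 3.11.15, with SciPy 1.17.1 for the intervals, pandas 2.3.3 and NumPy 2.4.6 for the tables, and matplotlib 3.10.9 for the plots.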

Additional observations from a re-analysis of the deposited data

Results flagged for a closer look

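With 4 values a set, a replicate was singled out where its gap to the nearest other value took up most of the range (Dixon's criterion at 95%). Among 55 sets examined, 5 met it, and about 2.75 would by chance at 1 in 20. Replicate 1 was far above the others for ORC4 (18.4 TPM against 8.16 to 9.83) and POLD3 (43.2 TPM against 31.3 to 33.2), and far below them for POLD2 (97.4 TPM against 234 to 248). Replicate 3 was far above the others for PCNA (881 TPM against 531 to 586) and for the summed TPM of clamp and loader (1198 against 825 to 843), a sum to which PCNA gives the most. GC content is 37.7% for ORC4, 43.0% for POLD3 and 59.1% for POLD2, and its part in these values was not tested.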

How the results depend on the processing

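No comparison between conditions, paired or unpaired, was possible because the series has a single group. All 44 genes were detected under each of the 10 alternatives run for detection. Of the 10 differences between partner genes, 9 kept the direction of their mean under each alternative run for them, with the losses of a shared sign given above for POLE2 and PRIM1. CDC6 minus CDT1 (0.42) became -0.12 with exon union lengths and ran from -0.16 (without replicate 1) to 0.66 (without replicate 2) as each replicate was left out. The median level of the 44 genes (57.0 TPM) was 70.2 with exon union lengths, which also moved 24 of 44 single levels by over 1 SD. The scaling of replicates set the counts past 2-fold. With TPM over all genes the median detected gene moved to -1.30, 0.55, 0.16 and 0.64 in replicates 1 to 4, and the replication genes counted 34 lower in replicate 1, 3 higher in replicate 2, 14 higher and 0 lower in replicate 3, and 6 higher in replicate 4. All detected genes then counted 62.5% lower in replicate 1 and 18.3%, 8.93% and 23.3% higher in replicates 2 to 4. In replicate 3, 5.86% of them were lower. Upper quartile scaling gave 6 higher and 0 lower in replicate 3 (5.27% and 10.2% of all detected genes). Without length correction 5 were higher and 0 lower in replicate 3 (5% and 11.7% of all detected genes), and 1 higher in replicate 1 (18.8%). Leaving out the mitochondrial genome gave 1 higher in replicate 2 (8.5% of all detected genes). A pseudocount of 0.1 gave 1 higher in replicates 1 and 2 (19.6% and 11% of all detected genes). At 1.5-fold, replicates 1 to 4 counted 9, 3, 14 and 2 higher and 18, 1, 4 and 3 lower, against 30.5%, 19.5%, 9.7% and 19.5% of all detected genes higher and 30.1%, 6.17%, 30.3% and 6.63% lower. Leaving out each replicate in turn gave 0 to 2 higher and 8 to 13 lower in replicate 1. It gave 0 to 1 higher and 0 to 1 lower in replicate 2, 0 to 5 higher in replicate 3, and 0 to 2 higher in replicate 4. Of all detected genes, 13.7% to 20.2% were then higher and 18.8% to 21.9% lower in replicate 1. In replicate 2, 2.95% to 14.3% were higher and 0.273% to 5.18% lower. In replicates 3 and 4, 0.671% to 6.97% and 4.19% to 13.5% were higher. Relative to the median detected gene, the median of the set was lower by 0.58 to 0.32 in replicate 1 and higher by 0.37 to 0.64 in replicate 3 over these settings at 2-fold. Precision is limited by the 4 replicates, and counting error was not compared with the spread between them. POLE2 had the fewest counts, at 230 in replicate 2.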

Other observations

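Several replication genes share their start region with a neighbour read in the other direction. By the positions in the files, 13 of 44 (29.5%) had a protein-coding gene that starts within 1000 bp on the opposite strand, against 16.4% of the 12165 detected protein-coding genes. The closest were MCM4 with PRKDC (20 bp), the kinase of non-homologous end joining, FEN1 with TMEM258 (24 bp), ORC3 with RARS2 (35 bp) and ORC1 with PRPF38A (76 bp). The pairs did not share a level or a pattern over replicates in every case. PRKDC had 96.2, 87.9, 36.1 and 128 TPM in replicates 1 to 4, with its lowest value in replicate 3, where MCM4 had its highest (113, 172, 238 and 167 TPM). ORC3 and RARS2 both had their highest value in replicate 1, at 46.0 and 53.0 TPM. LIG1 (30.2 to 45.2 TPM) had C19orf68 at 89 bp, with 2.83, 17.1, 18.0 and 30.8 TPM, and both had their lowest value in replicate 1 and their highest in replicate 4. These pairs were described and not tested.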
